A study of Mus musculus with 6 samples.

Results

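The genes described here are 10 genes of mouse, grouped under the name of immediate early genes. They are the FOS genes Fos, Fosb and Fosl2 and the JUN genes Jun, Junb and Jund. The others are the EGR genes Egr1 and Egr2, and Ier2 and Ier3. Members were taken by name: a probe set belonged if the array annotation gave it exactly 1 gene symbol and that symbol was one of these 10. This gave 14 of the 45101 probe sets of the array, covering all 10 genes of the 18193 with such a probe set. Fosl2, Jun, Jund and Egr2 had a pair of probe sets each and the other genes 1 each. In RefSeq's annotation of GRCm38.p6, Junb, Jund and Ier2 lie on chromosome 8, and Jun, Fosl2, Fosb, Egr2, Fos, Ier3 and Egr1 on chromosomes 4, 5, 7, 10, 12, 17 and 18 in that order.

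RNA of 6 primary microglial cultures from mouse brain was hybridised to 1 single-colour oligonucleotide array each, 3 of Dap12-deficient cells and 3 of wild-type cells, all as total RNA without a stated treatment. Dap12, encoded by Tyrobp, is the ITAM adaptor through which receptors such as Trem2 activate the kinase Syk in myeloid cells. Strain, age, sex and the construction of the mutant allele were not stated in the labels. Whether the cultures had separate animals as their source is not stated either. The p-values thus reflect only how far these cultures differed, which may be technical. The labels number some cultures singly and others as a pair of numbers, with no explanation.

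FOS and JUN proteins are basic leucine zipper factors that pair to form AP-1, and EGR proteins are zinc finger factors that bind GC-rich sites. Most of their genes are induced within minutes of a stimulus without new protein synthesis, largely through MAP kinases acting on serum response factor, its ETS partners and CREB. In macrophages and microglia AP-1 acts beside PU.1 at enhancers, and ITAM receptors that signal through Syk feed into the same kinases.

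Promoters are shown for 3 members because Junb, Fosl2 and Egr2 were the members whose signal varied most over the 6 arrays. The sequences come from RefSeq on GRCm38.p6, run 5′ to 3′ on the gene's strand from 250 bases before the annotated start to 50 bases after it, and are in lower case with motif matches in capitals.
Fosl2: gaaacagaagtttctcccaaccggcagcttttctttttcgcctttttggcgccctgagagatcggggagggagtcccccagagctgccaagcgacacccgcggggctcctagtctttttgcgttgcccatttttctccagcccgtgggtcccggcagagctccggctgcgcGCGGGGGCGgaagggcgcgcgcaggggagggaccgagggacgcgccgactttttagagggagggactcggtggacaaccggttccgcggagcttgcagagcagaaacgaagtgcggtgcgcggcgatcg
Junb: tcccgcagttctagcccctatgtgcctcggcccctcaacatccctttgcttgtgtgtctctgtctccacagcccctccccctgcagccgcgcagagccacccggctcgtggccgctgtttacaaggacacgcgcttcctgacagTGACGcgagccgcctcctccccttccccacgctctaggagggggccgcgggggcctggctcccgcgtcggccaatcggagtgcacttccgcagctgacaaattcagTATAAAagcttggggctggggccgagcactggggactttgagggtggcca
Egr2: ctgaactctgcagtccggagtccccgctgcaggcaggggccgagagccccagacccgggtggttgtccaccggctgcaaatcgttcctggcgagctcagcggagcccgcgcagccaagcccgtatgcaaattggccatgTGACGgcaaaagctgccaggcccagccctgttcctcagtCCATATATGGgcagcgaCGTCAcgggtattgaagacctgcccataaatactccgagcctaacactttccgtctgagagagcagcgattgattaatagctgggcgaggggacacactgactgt

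The Fosl2 window lies at chr5:32136222-32136521 on the plus strand, the Junb window at chr8:84978699-84978998 on the minus strand and the Egr2 window at chr10:67537619-67537918 on the plus strand. In Fosl2 the capitals mark an EGR site, read as GCGTGGGCG or GCGGGGGCG, at positions -79 to -71. In Junb they mark a CRE core, TGACG, at -106 to -102 and a TATA box, TATAAA, at 1 to 6. In Egr2 they mark a CArG box, the element bound by serum response factor, at -72 to -63 and CRE cores at -111 to -107 and, on the other strand, at -55 to -51. The CArG box of Egr2 reads the same on both strands and does not overlap the CRE cores. Of 32851 promoter windows of this length, 1.63% held a CArG box, 3.47% an EGR site, 20.8% a CRE core and 13.6% a TATA box on either strand. Windows of 8 of the 10 genes were in the table, and those of Egr1 and Ier2 were not, so their motifs are unknown here. Among the 8 a CArG box was found only in Egr2, in 4 of its 5 windows, some of which overlap and hold the same box. An EGR site was found in Fosl2 and Fosb, a CRE core in Fos, Fosb, Junb and Egr2 and a TATA box in Fos and Junb. The full CRE (TGACGTCA, in 1.79% of all windows) and the AP-1 site (TGACTCA or its reverse complement TGAGTCA, in 5.20%) were found in 0 of the 8. The ETS core CCGGAA, in 14.9% of windows, was found in another Egr2 window. These matches describe letters only.

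Tyrobp, the targeted gene, checks the labels: its probe set gave 125, 96.4 and 96.2 on Dap12-deficient arrays 1, 2 and 3, against 5584, 7271 and 5396 on wild-type arrays 1, 2 and 3 (limma log2 difference -5.64, SE 0.20, adjusted p = 8.14e-07). Signals are linear and scaled so that every array has the same trimmed mean, and differences are of log2(signal + 16), Dap12-deficient minus wild-type. The sum over 9 of 10 microglia markers was 19893 to 28009 on Dap12-deficient arrays and 23250 to 33645 on wild-type arrays. Of these 9 markers, 8 were lower in Dap12-deficient cultures and 1 higher, with a median log2 difference of -0.29. Other markers differed beside those of microglia. Oligodendrocyte markers (7 of 8) summed to 1468 to 6575 on Dap12-deficient and 5439 to 8700 on wild-type arrays. All 7 were lower (median -1.35), each at an unadjusted limma p under 0.05, though 0 passed after adjustment. Astrocyte markers (7 of 7) summed to 375 to 1346 on Dap12-deficient and 374 to 569 on wild-type arrays. All 7 were higher (median 0.48), or 6 with arrays divided to a common median. The highest astrocyte sum was on Dap12-deficient array 3. Neuron markers (6 of 6) summed to 280 to 370 on Dap12-deficient and 362 to 471 on wild-type arrays. Fibroblast markers (5 of 6) summed to 106 to 145 on Dap12-deficient and 94.4 to 200.1 on wild-type arrays. Endothelial markers (2 of 5) summed to 51.3 to 67.3 on Dap12-deficient and 41.7 to 76.8 on wild-type arrays. Of these, 2 of 6 neuron, 4 of 5 fibroblast and 1 of 2 endothelial markers were higher. The Y-linked genes Eif2s3y, Kdm5d and Uty summed to 88.4, 179 and 234 on Dap12-deficient arrays 1, 2 and 3, against 708, 710 and 781 on wild-type arrays. Sex makeup of the cultures and group thus cannot be told apart. In RNA of mixed cultures, fewer cells of a type and less RNA per cell cannot be told apart. The part of cell type makeup in the values below was not tested.

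The immediate early genes did not move as a block in Dap12-deficient microglia, and 0 of their 13 tested probe sets (the dimmer one of Jund fell below the filter on low signals) passed in limma (Benjamini-Hochberg adjusted p between 0.336 and 0.962), where 0.0074% of the 27022 probe sets tested did. At an unadjusted p under 0.05 there were 2 of 13, those of Jund and Fosl2, against 10.7% of all probe sets. With the brightest probe set of each gene, 6 of 10 genes were higher and 4 lower, with a median log2 difference of 0.17, where the median of 12875 genes was -0.03 and 45.2% were higher. The Dap12-deficient arrays all lay above the wild-type arrays for Jun, Jund and Ier3, 3 of 10 genes, and for 7.54% of all genes. With arrays divided to a common median this held for Jund alone, and for 2.37% of all genes. They all lay below for 0 of the 10 and for 8.85% of all genes, so that 16.4% of genes had groups that did not overlap in either direction. Of the AP-1 genes 5 of 6 were above 0, with a median of 0.37 (4 of 6 with arrays divided to a common median, where Fos turned), and both EGR genes lay below 0 under each scaling.

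**Figure D1:**
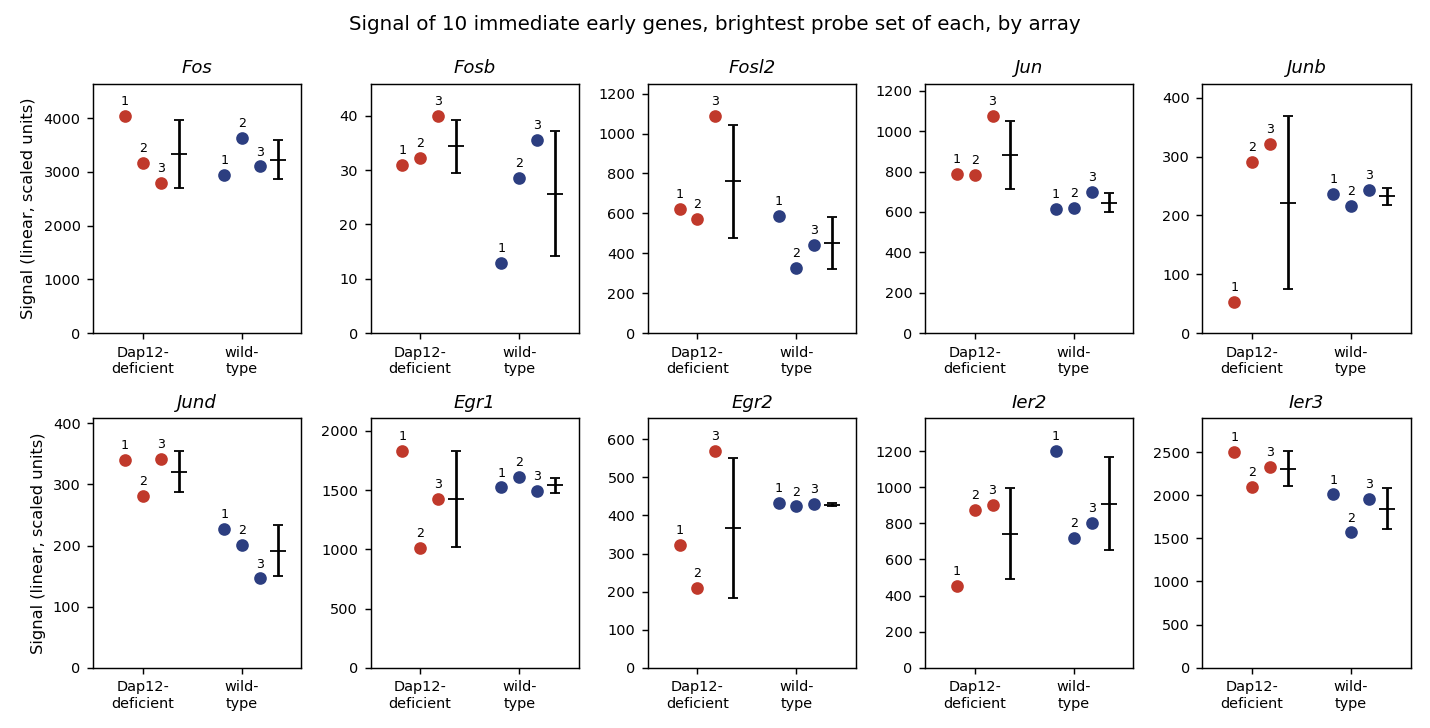
Signal (linear scaled units, axis from 0) of the brightest probe set of each gene on 3 Dap12-deficient arrays (red, left) and 3 wild-type arrays (blue, right), numbered by replicate, with mean and SD (n = 3) in black. Jun, Jund and Ier3 have groups that do not overlap, and Junb has 1 low array at 52.5.

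Fos encodes c-Fos, the inducible partner of JUN proteins in AP-1. Its signal was 4036, 3166 and 2798 on Dap12-deficient arrays 1, 2 and 3, against 2946, 3631 and 3101 on wild-type arrays 1, 2 and 3. The groups overlapped: Dap12-deficient array 1 was the highest and array 3 the lowest of the 6. Means were 3333 ± 636 in Dap12-deficient and 3226 ± 359 in wild-type cultures (SD, n = 3 each), 0.04 apart on the log2 scale with a 95% interval of -0.38 to 0.45 (limma adjusted p = 0.962). The sign turned without Dap12-deficient replicate 1 (-0.11) and without wild-type replicate 1 (-0.03).

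Fosb, a close relative of Fos, was dim, with 30.9, 32.3 and 39.9 on Dap12-deficient arrays, against 13.0, 28.5 and 35.5 on wild-type arrays. Wild-type array 1 alone was low and the other 5 arrays overlapped. The log2 difference of 0.31 (SE 0.24, limma adjusted p = 0.663) shrank to 0.069 without wild-type replicate 1.

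Fosl2 encodes Fra-2, a FOS family member without the strong activation domain of c-Fos. Its brighter probe set gave 623, 572 and 1087 on Dap12-deficient arrays 1, 2 and 3, against 585, 327 and 444 on wild-type arrays 1, 2 and 3. Dap12-deficient array 3 stood far above the rest, and wild-type array 1 lay between Dap12-deficient arrays 1 and 2. The log2 difference was 0.71 (95% interval 0.08 to 1.34, SE 0.28, limma adjusted p = 0.423), higher than the wild-type mean on 3 of 3 arrays. It was 0.43 without Dap12-deficient replicate 3. The dimmer probe set ordered the groups alike, with 20.7, 24.4 and 34.4 on Dap12-deficient and 14.9, 23.2 and 14.8 on wild-type arrays (log2 difference 0.33, SE 0.20, adjusted p = 0.589).

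Jun encodes c-Jun, the JUN subunit activated by phosphorylation through JNK. Its brighter probe set gave 788, 783 and 1075 on Dap12-deficient arrays 1, 2 and 3, against 617, 620.3 and 700.1 on wild-type arrays 1, 2 and 3. The groups did not overlap, and Dap12-deficient array 3 was again the highest. The log2 difference was 0.43 (95% interval -0.0051 to 0.86, SE 0.20, limma adjusted p = 0.475). It was 0.28 without Dap12-deficient replicate 3 and 0.18 with arrays divided to a common median. The other probe set did not repeat this separation: it gave 739.9, 513 and 619 on Dap12-deficient arrays, against 763, 387 and 679.5 on wild-type arrays, 0.07 apart on the log2 scale (SE 0.26, adjusted p = 0.943). The pair of probe sets thus disagreed on whether the groups overlap, and where each lies in the transcript was not stated.

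Junb, which encodes a JUN protein that often opposes c-Jun, had the widest spread of the 10 genes. Its signal was 52.5, 291 and 321 on Dap12-deficient arrays 1, 2 and 3, against 237, 217 and 243 on wild-type arrays 1, 2 and 3. Dap12-deficient arrays 2 and 3 lay above every wild-type array, and array 1 lay far below all others. The mean was 222 ± 147 in Dap12-deficient and 232 ± 13.6 in wild-type cultures (SD, n = 3 each), and the log2 difference was -0.37 (95% interval -1.46 to 0.72, SE 0.49, limma adjusted p = 0.817). The direction rested on array 1: without Dap12-deficient replicate 1 the difference was 0.38 (adjusted p = 0.535).

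Jund encodes the JUN protein that most cells make without a stimulus. It had the smallest p of the members: 340.0, 282 and 341 on Dap12-deficient arrays 1, 2 and 3, against 228, 201 and 146 on wild-type arrays 1, 2 and 3. All Dap12-deficient arrays lay above all wild-type arrays. Means were 321 ± 33.9 in Dap12-deficient and 192 ± 41.5 in wild-type cultures (SD, n = 3 each), a ratio of 1.68. The log2 difference was 0.71 (SE 0.21, 95% interval 0.24 to 1.19) with an unadjusted p of 0.0068 and an adjusted p of 0.336 in limma, so it did not pass. The second probe set of Jund was too dim for the test, with 11.4, 8.15 and 9.39 on Dap12-deficient arrays against 4.85, 1.33 and 8.91 on wild-type arrays.

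**Figure D2:**
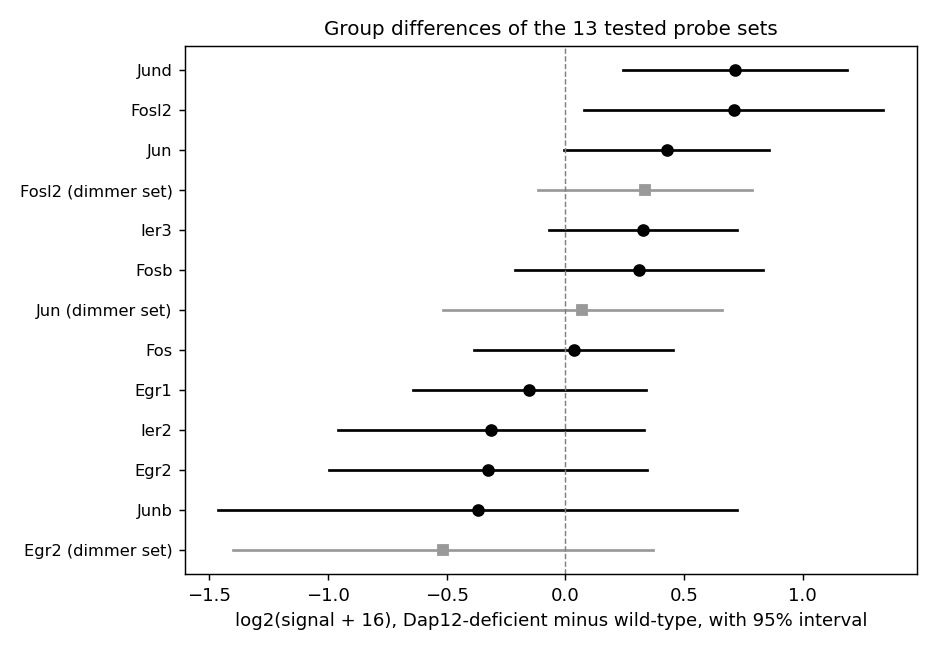
Difference of log2(signal + 16), Dap12-deficient minus wild-type, of the 13 tested probe sets, with 95% limma intervals. Black circles are the brightest probe set of a gene and grey squares its dimmer one; only the intervals of Jund (0.24 to 1.19) and of the brighter Fosl2 probe set (0.08 to 1.34) lie wholly above 0, before adjustment.

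Egr1, a zinc finger factor that serum and growth factors induce through serum response factor, was 1830.2, 1016 and 1427 on Dap12-deficient arrays 1, 2 and 3, against 1523, 1608 and 1490.3 on wild-type arrays 1, 2 and 3. The wild-type arrays lay close together, with the Dap12-deficient arrays spread on both sides of them. Means were 1424 ± 407 in Dap12-deficient and 1541 ± 60.9 in wild-type cultures (SD, n = 3 each), which were -0.15 apart on the log2 scale (limma SE 0.22, adjusted p = 0.836). Without Dap12-deficient replicate 2 it was 0.069.

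Egr2, also called Krox-20, showed the same contrast in spread. Its brighter probe set gave 323, 209 and 569 on Dap12-deficient arrays 1, 2 and 3, against 432, 424 and 429 on wild-type arrays 1, 2 and 3. The 3 wild-type arrays were nearly equal, while Dap12-deficient array 2 was the lowest and array 3 the highest of all. Means were 367 ± 184 in Dap12-deficient and 428 ± 4.33 in wild-type cultures (SD, n = 3 each), which were -0.33 apart on the log2 scale (limma SE 0.30, adjusted p = 0.726). The dimmer probe set had 193, 65.4 and 253 on Dap12-deficient arrays, against 233, 294 and 157 on wild-type arrays (log2 difference -0.51, SE 0.40, adjusted p = 0.669). Both probe sets were lowest on Dap12-deficient array 2, but the wild-type arrays were not alike in the dimmer one. Without Dap12-deficient replicate 2 the difference of the brighter probe set was 0.0034. Over the 10 genes, the log2 SD was larger in Dap12-deficient cultures for 7, as it was for 62.5% of the 12875 genes.

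Ier2, which encodes a nuclear protein of the early growth factor response, was 453, 874 and 901 on Dap12-deficient arrays 1, 2 and 3, against 1201, 720.2 and 803 on wild-type arrays 1, 2 and 3. Its groups overlapped, with Dap12-deficient array 1 the lowest and wild-type array 1 the highest. The log2 difference of -0.31 (SE 0.29, limma adjusted p = 0.727) came to 0.0025 without Dap12-deficient replicate 1.

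Ier3, also called IEX-1, is an NF-kB target that acts on cell survival. Its signal was 2503, 2093 and 2325 on Dap12-deficient arrays 1, 2 and 3, against 2008, 1568 and 1952 on wild-type arrays 1, 2 and 3. All Dap12-deficient arrays were above all wild-type arrays, by a narrow margin between Dap12-deficient array 2 and wild-type array 1. Means were 2307 ± 206 in Dap12-deficient and 1843 ± 239 in wild-type cultures (SD, n = 3 each), 0.33 apart on the log2 scale (95% interval -0.07 to 0.72, SE 0.18, limma adjusted p = 0.549). The difference was 0.22 without wild-type replicate 2 and 0.073 with arrays divided to a common median.

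**Figure D3:**
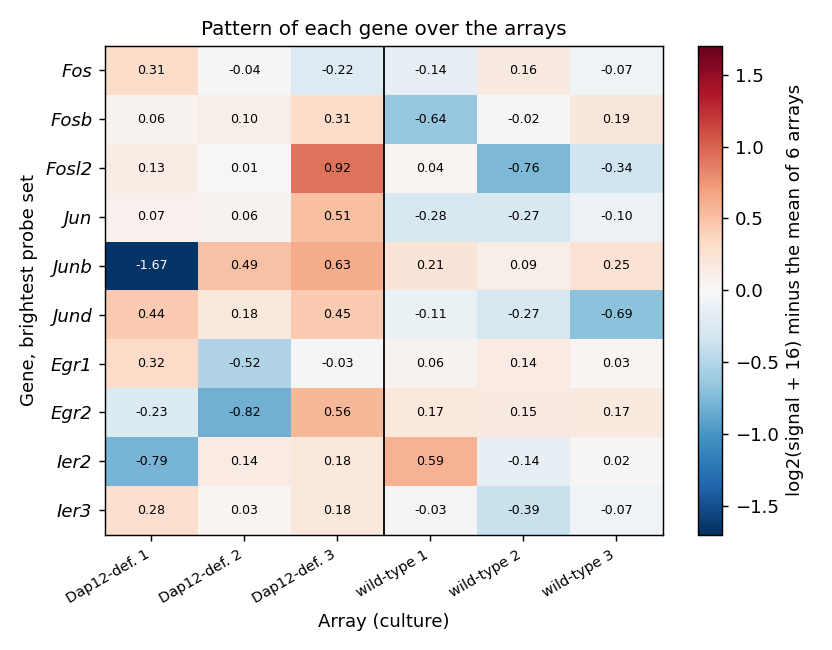
Each gene's log2(signal + 16), by its brightest probe set, minus its mean over 6 arrays. Dap12-deficient arrays are left of the line and wild-type arrays right. Dap12-deficient array 3 holds the highest value of 6 of the 10 genes, and Dap12-deficient array 1 holds the lowest values of Junb (-1.67) and Ier2 (-0.79).

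The arrays of the mutant group differed among themselves in which members were high. By the brightest probe set, Dap12-deficient array 3 was the highest of the 6 for 6 of 10 genes (Fosb, Fosl2, Jun, Junb, Jund and Egr2). It was the highest for 20.5% of all genes. Jund was nearly tied, at 341 on Dap12-deficient array 3 and 340.0 on Dap12-deficient array 1. The dimmer probe set of Fosl2 also peaked on array 3. Those of Jun, Egr2 and Jund peaked on wild-type array 1, wild-type array 2 and Dap12-deficient array 1. Dap12-deficient array 1 was the highest for Fos, Egr1 and Ier3, where it was the highest for 17.7% of all genes, and the lowest for Junb and Ier2. The mean of the 10 genes, each centred on its mean over 6 arrays, was -0.11, -0.04 and 0.35 on Dap12-deficient arrays 1, 2 and 3, against -0.01, -0.13 and -0.06 on wild-type arrays 1, 2 and 3. By the mean, Dap12-deficient array 3 alone lay above every wild-type array. The median of the same 10 centred values was 0.10, 0.044 and 0.38 on Dap12-deficient arrays 1, 2 and 3, against 0.0061, -0.078 and -0.026 on wild-type arrays 1, 2 and 3, so that by the median all 3 Dap12-deficient arrays lay above all 3 wild-type arrays. The margin between Dap12-deficient array 2 and wild-type array 1 was narrow, and this is on the deposited scaling. With arrays divided to a common median, the median log2 difference of the members was -0.072. On Dap12-deficient array 1, Junb was at -1.67 and Ier2 at -0.79 on this centred scale. The genes outside all lists whose pattern over the 6 arrays was most like that mean were Tex10, F2r, which encodes a thrombin receptor, Traf6, a ubiquitin ligase of Toll-like receptor signalling, Cdr2 and the chemokine gene Cxcl1, with Pearson r between 0.982 and 0.988. All 5 were highest on Dap12-deficient array 3, which follows from choosing them by likeness to a mean that peaks there. An example is F2r, with 294, 301 and 661 on Dap12-deficient and 332, 284 and 333 on wild-type arrays. The probe sets of Tex10, F2r and Cxcl1 are of the kinds that can bind transcripts of other genes (_s_at, _x_at). With 6 arrays and 12875 genes such likeness is a description only.

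Of the other factors of the same families 0 passed in limma. Of 14 tested genes of other AP-1 related factors of the basic leucine zipper class, 11 were higher and 3 lower, with a median of 0.28 (8 higher with arrays divided to a common median). The groups did not overlap for 3, all higher, against 7.54% of all genes. Mafk and Maff encode small MAF proteins, which lack an activation domain. Mafk had 362, 440.1 and 572 on Dap12-deficient arrays, against 304, 253 and 316 on wild-type arrays. Maff had 636, 721 and 923 on Dap12-deficient arrays, against 549.7, 494 and 513 on wild-type arrays. Their log2 differences were 0.61 (SE 0.22, adjusted p = 0.373) and 0.52 (SE 0.20, adjusted p = 0.396), and both were higher on 3 of 3 arrays. Bach1, a repressor that pairs with small MAF proteins, overlapped between the groups (0.36, SE 0.19, adjusted p = 0.526). Of 3 tested EGR relatives and co-repressors, 2 were higher. Nab1, which binds EGR proteins and represses their activity, had 1235, 1047 and 1374 on Dap12-deficient arrays, against 879, 939.5 and 865 on wild-type arrays (0.43, SE 0.18, adjusted p = 0.443). Egr3 was at 245, 128 and 497 on Dap12-deficient arrays, against 152, 100.3 and 143 on wild-type arrays, which overlap (0.88, SE 0.39, adjusted p = 0.463), and Nab2 had a log2 difference of -0.05 (SE 0.29). Egr3, like the brighter probe set of Egr2, was highest on Dap12-deficient array 3, and array 2 was the lowest of its group.

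Of 37 tested genes of other immediate early responses, 28 were higher and 9 lower, with a median of 0.30 (20 higher with arrays divided to a common median), and 0 passed (10 at an unadjusted p under 0.05). Their arrays did not overlap for 12 higher and 2 lower genes, against 7.54% of all genes higher and 8.85% lower. The members and all lists here were chosen with earlier results of these data known, so such contrasts are descriptions only. For the lists, overlap was counted on the deposited scaling alone. At an unadjusted p under 0.05 the share of all probe sets was 10.7%. The chemokine gene Cxcl2 had 2616, 2291 and 3831 on Dap12-deficient arrays, against 1188, 513 and 904 on wild-type arrays (log2 difference 1.77, limma adjusted p = 0.179). Klf10, a zinc finger factor induced by TGF-beta, had 442, 322 and 515 on Dap12-deficient arrays, against 135, 177 and 193 on wild-type arrays (1.25, adjusted p = 0.221). Nfkbiz, whose protein modulates NF-kB, had 911, 842 and 1058 on Dap12-deficient arrays, against 531, 405 and 459 on wild-type arrays (0.99, adjusted p = 0.260). In each of these 3 genes the lowest Dap12-deficient array was above the highest wild-type array, and none of the 10 members had a log2 difference as large.

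**Figure D4:**
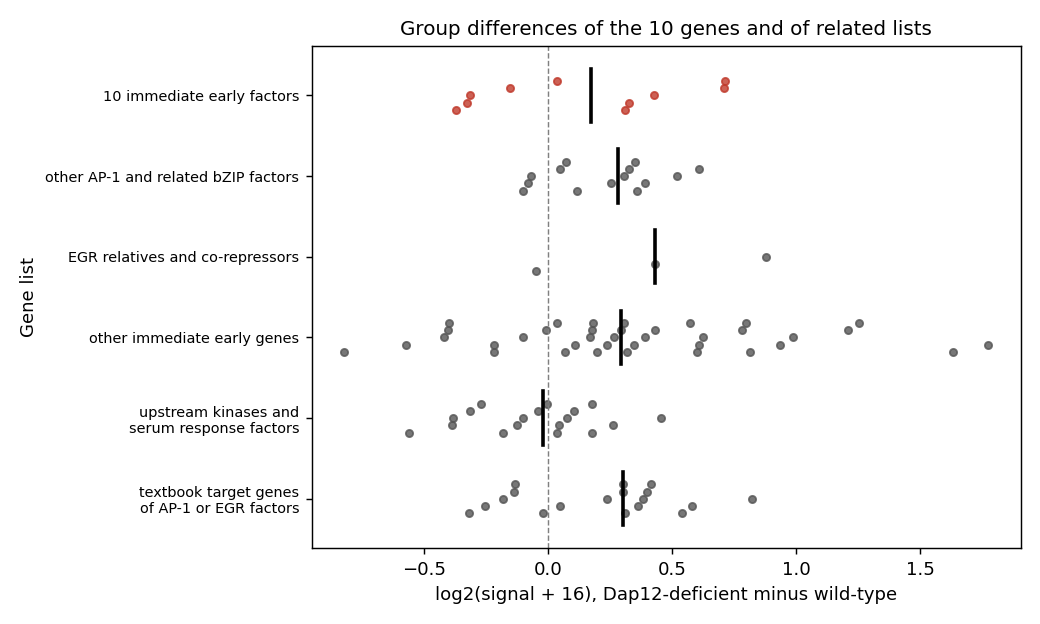
Difference of log2(signal + 16), Dap12-deficient minus wild-type, of each gene (brightest tested probe set), with list medians as black bars and the 10 immediate early factors in red. Medians are 0.17 for the 10 factors, 0.30 for other immediate early genes and -0.02 for upstream kinases and serum response factors.

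The next list holds genes of the kinases and factors that act on immediate early promoters. Of its 18 tested upstream kinases and serum response factors, 8 were higher and 10 lower, with a median of -0.02 (2 higher with arrays divided to a common median, where the median of all genes was -0.23). Map2k3, a kinase that activates p38, differed by 0.45 on the log2 scale (SE 0.22, limma adjusted p = 0.492), Mapk14, which encodes p38 alpha, -0.38 (SE 0.19, adjusted p = 0.515) and Mrtfa, a co-activator of serum response factor, -0.38 (SE 0.21, adjusted p = 0.541). The groups did not overlap for 3 of the 18, all lower in Dap12-deficient cultures, namely Mapk14, Map2k1 and Mapk9, where 8.85% of all genes were lower without overlap. The largest difference by size was that of Map2k2, a kinase that activates ERK, at -0.56 (SE 0.32, adjusted p = 0.561), with overlapping groups. Map2k1, Mapk9 and Map2k2 were named after their values were seen. Transcript levels do not report the activity of such kinases. Of 18 tested textbook targets of AP-1 or EGR factors, 12 were higher and 6 lower, with a median of 0.30 (11 higher with arrays divided to a common median). The groups did not overlap for 3, all higher, against 7.54% of all genes. Pdgfa, a growth factor gene, had 648, 484 and 476 on Dap12-deficient arrays, against 339, 336 and 374 on wild-type arrays (0.58, SE 0.20, adjusted p = 0.365). The cytokine gene Tnf had 309, 363 and 781 on Dap12-deficient arrays, against 262, 333 and 167 on wild-type arrays (0.82, SE 0.35, adjusted p = 0.444), so that it overlapped, and Vegfa had 0.54 (SE 0.24, adjusted p = 0.460).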

How the data were processed

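Total RNA of 6 primary microglial cultures was labelled with biotin in a kit with a pair of amplification cycles, per the labels' protocols. Amplified RNA is truncated toward the 3′ end, which can dim probes lying upstream. The deposited file holds a linear intensity for each probe set, and the submitters' processing notes name GCOS, with its summary algorithm not given in the sources used here. The trimmed mean (2% off each end) was 100.0 on all arrays, so the authors' deposited intensity was used as scaled.

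Groups came from the labels, with replicates numbered in order of deposit. After leaving out 64 controls, 27022 probe sets with a mean signal at or above the 40th percentile (8.51) were tested with limma 3.58.1 in R 4.3.3 on log2(signal + 16), two-sided, with an intensity trend and no covariate. P-values were adjusted by Benjamini-Hochberg over all of them, with 0.05 as the threshold, and the brightest tested probe set stood for a gene. No member probe set is of the kinds that can bind transcripts of other genes (_s_at, _x_at). The current symbols of all 10 members matched RefSeq (GRCm38.p6) by gene ID. Named genes were the members, the 3 with the smallest p of each list and the 5 most alike in pattern. Members and lists were chosen with earlier results of these data known. The fit was tested on simulated data. Alternatives were other pseudocounts, scalings, filters, priors and weights, probe set choices, sex and title number terms, and leaving out each array. Plots used matplotlib 3.10.9 in Python 3.11.15.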

Additional observations from a re-analysis of the deposited data

How the results depend on the processing

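Under all 20 alternatives 0 member probe sets passed, and the lowest adjusted p of a member was 0.180 (Jund, without Dap12-deficient replicate 2). Jund, Fosl2, Jun, Ier3 and Fosb were higher in Dap12-deficient cultures under all 20, but Ier3 was at 0.073 with arrays divided to a common median and 0.017 with the sex term, and Jun at 0.18 with the common median. Not all 20 bear on direction. Other filters and priors, 1 probe set per gene, leaving out _s_at and _x_at probe sets, and the title number term left each difference unchanged. Dividing arrays to a common median moved the median of all genes to -0.23 from -0.03, the median of the members to -0.072 and the calls over all probe sets to 5, and turned Fos to -0.22. Relative to the median of all genes, Fos was then at 0.01 and Jund at 0.71, and the groups did not overlap for Jund (higher) and Egr1 (lower) only. Under this scaling the groups did not overlap for 26.4% of all genes, 305 higher and 3088 lower of 12875. With array weights 4 probe sets were called, and with 1 probe set per gene also 4. With the sex term 11 were called and the members' median was 0.74, with Fos at -0.66, Ier2 at 0.85, Egr2 at 0.62 and Junb at 3.26, the last larger than the whole range of Junb over the arrays (2.30). That term, the mean log2 signal of the Y-linked genes, was 5.31, 5.85 and 6.19 on Dap12-deficient arrays. It was 7.10, 7.35 and 7.36 on wild-type arrays. Sex makeup and group thus cannot be told apart, and these values are not sex-adjusted effects. Leaving out each array in turn, calls ran from 2 to 172 (172 without Dap12-deficient replicate 2, 15 without replicate 1), the members' median from 0.021 (without wild-type replicate 1) to 0.31 (without Dap12-deficient replicate 1), and members with groups that did not overlap from 3 to 5, where the share of all genes ran from 23.9% to 29.8% (28.4% in the omission that gave 5). Differences then ran from -0.11 to 0.15 for Fos, -0.35 to 0.069 for Egr1, -0.69 to 0.0034 for Egr2, -0.48 to 0.0025 for Ier2, -0.77 to 0.38 for Junb, 0.28 to 0.50 for Jun, 0.22 to 0.39 for Ier3, 0.43 to 0.91 for Fosl2, 0.55 to 0.84 for Jund and 0.069 to 0.48 for Fosb. The causes were not tested, and with 3 arrays a group differences of the size seen here can go uncalled.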

Other observations

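The low Junb signal on Dap12-deficient array 1 was rare among genes. It lay 1.77 below the next lowest array on the log2(signal + 16) scale, and of 12875 genes 4, Junb included, had a gap that large at the low end of this array. The others, named after their values were seen, were Sh3tc1, Hyal2 and Rnasek. Rnasek had 9.90, 161 and 115 on Dap12-deficient arrays 1, 2 and 3, against 128, 118 and 95.1 on wild-type arrays. Hyal2, a hyaluronidase gene, had 3.85, 57.5 and 62.0 on Dap12-deficient arrays, against 63.6, 76.0 and 62.0 on wild-type arrays. Dap12-deficient array 1 was the lowest of the 6 for 26.0% of all genes.

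Junb and Ier2, both lowest on that array, are near each other on chromosome 8 in the gene order of GRCm38.p6, with 17 protein-coding genes between them. Of the 15 of these that were tested, 9 were also lowest on Dap12-deficient array 1, where 26.0% of all genes were. Most of these 9 were lowest by a small margin. Their gaps below the next lowest array ran from 0.093 for Dnase2a to 1.25 for Rnaseh2a, against 1.77 for Junb. The second widest of the 9, that of Nfix, was 0.55. The ends of this stretch were picked for being lowest on that array. The widest gap among them was that of Rnaseh2a, a subunit gene of ribonuclease H2, with 33.2, 101 and 117 on Dap12-deficient arrays, against 102, 120 and 113 on wild-type arrays. Jund, on the same chromosome, was at 340.0 on Dap12-deficient array 1, above all wild-type arrays.

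Among genes chosen after their values were seen, the orphan nuclear receptor genes of the NR4A family, which the same stimuli induce, were all higher by their brightest probe set. Nr4a2 had 531, 370.5 and 1308 on Dap12-deficient arrays, against 146, 176 and 288 on wild-type arrays (log2 difference 1.63, limma adjusted p = 0.293). Nr4a3 and Nr4a1 had differences of 0.78 (adjusted p = 0.439) and 0.43 (adjusted p = 0.675). The groups overlapped for Nr4a1 but not for Nr4a2 or Nr4a3, where 7.54% of all genes were higher without overlap. The matrix protein gene Ccn1 (-0.82, limma adjusted p = 0.371) had all Dap12-deficient arrays below all wild-type arrays. So did the growth factor response gene Myc (-0.40, limma adjusted p = 0.508), and 8.85% of all genes. The probe set of Ccn1 is of a kind that can bind transcripts of other genes (_x_at).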
